A study of Mus musculus with 24 samples.

Results

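The 10 AP-1 and ATF genes Jun, Junb, Jund, Fos, Fosb, Fosl1, Fosl2, Atf2, Atf3 and Maff were followed across 24 RNA sequencing libraries of mouse astrocyte lines that lacked p53 or expressed 1 of 3 p53 missense mutants. The genes were chosen by symbol, and 10 of 10 were among the 14427 genes of the count table. Cells came from the cortex of C57BL/6 pups at postnatal day 1 that carried 1 floxed and 1 deleted Trp53 allele (Trp53 f/-), pooled from at least 3 male pups into 1 male culture and at least 3 female pups into 1 female culture. Every line received a Cre lentivirus with puromycin selection, which removed the floxed allele. The KO lines received Cre alone. The R172H, Y202C and Y217C lines in addition overexpressed that p53 mutant from a retrovirus with eGFP, by which they were sorted, so a mutant line differed from its KO in the retrovirus and the sort as well as in the mutant protein. All lines grew in DMEM/F12 with 10% FBS and were at passages 10 to 15. There were 8 lines (KO, R172H, Y202C and Y217C, male and female) with 3 libraries each. All lines of a sex came from 1 pooled culture, so the tests measured the spread between libraries of a line, which may be technical, and sex and culture cannot be told apart.

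AP-1 is a dimer of basic leucine zipper proteins. A JUN subunit pairs with another JUN, a FOS or an ATF subunit, FOS subunits cannot pair with themselves, and the dimer binds the AP-1 site or the related cyclic AMP response element (CRE). Growth factors in serum, MAP kinases and cell stress switch several of these genes on within minutes as immediate early genes, while FOSL1, FOSL2 and JUND stay in cycling or resting cells for longer. Small MAF proteins such as MAFF share the zipper, lack an activation domain and pair with CNC and BACH proteins. In the brain AP-1 is known for its part in reactive astrocytes and in the mesenchymal state of glioma.

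Among the 9 genes with a RefSeq promoter (not Fosl1; 11 windows, GRCm38.p6, 250 bases before to 50 after the start of transcription), no window held the AP-1 site TGANTCA or a CArG box (the site of serum response factor) on either strand. Of all 32851 promoters, 7.81% and 1.63% held these. A window without a match says only that these letters are not in it. The starts are those of RefSeq. The 250 bases before the Jund start (chr8:70697489-70697738, plus strand) lie apart from the annotated Jund gene (70698949 to 70700616). That window thus does not show the bases next to that gene. The full CRE TGACGTCA was in 1 window, the middle one of 3 Maff promoters, against 1.79% of all promoters. The half-site TGACG, searched after these and contained in the full CRE, was in 6 of the 11 windows, which belong to Junb, Fos, Fosb, Atf3 and Maff, against 20.8% of all promoters. In male Y202C against its KO, Junb, Fosb, Atf3 and Maff were higher and Fos was lower. Fosl2, whose window held no match, and Fosl1, without a window, were also higher there. The 250 bases before the start are shown for the 5 genes with a match, for Maff from the window with the CRE. Each is read on the strand of the gene with the match in capitals, and a match describes letters, not binding.
Junb, chr8:84978749-84978998 (minus strand): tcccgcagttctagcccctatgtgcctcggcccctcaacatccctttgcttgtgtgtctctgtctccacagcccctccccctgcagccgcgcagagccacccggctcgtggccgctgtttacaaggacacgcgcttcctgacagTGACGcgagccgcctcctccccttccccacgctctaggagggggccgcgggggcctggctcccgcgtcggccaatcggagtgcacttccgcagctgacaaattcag
Fos, chr12:85473640-85473889 (plus strand): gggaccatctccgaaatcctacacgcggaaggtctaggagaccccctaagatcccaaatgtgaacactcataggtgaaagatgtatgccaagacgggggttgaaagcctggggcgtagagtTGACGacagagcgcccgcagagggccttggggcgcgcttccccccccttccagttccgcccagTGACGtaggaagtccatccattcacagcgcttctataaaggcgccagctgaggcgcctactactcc
Fosb, chr7:19310046-19310295 (minus strand): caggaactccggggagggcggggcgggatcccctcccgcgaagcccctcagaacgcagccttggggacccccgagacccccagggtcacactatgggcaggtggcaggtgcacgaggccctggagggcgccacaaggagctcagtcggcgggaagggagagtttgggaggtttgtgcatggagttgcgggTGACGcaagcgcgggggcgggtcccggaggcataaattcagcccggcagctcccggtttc
Atf3, chr1:191183334-191183583 (minus strand): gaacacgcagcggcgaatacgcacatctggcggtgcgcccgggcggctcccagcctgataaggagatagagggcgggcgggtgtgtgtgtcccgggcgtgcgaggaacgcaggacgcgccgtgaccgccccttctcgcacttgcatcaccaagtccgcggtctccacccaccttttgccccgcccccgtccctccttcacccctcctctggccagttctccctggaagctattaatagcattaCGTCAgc
Maff, chr15:79347270-79347519 (plus strand): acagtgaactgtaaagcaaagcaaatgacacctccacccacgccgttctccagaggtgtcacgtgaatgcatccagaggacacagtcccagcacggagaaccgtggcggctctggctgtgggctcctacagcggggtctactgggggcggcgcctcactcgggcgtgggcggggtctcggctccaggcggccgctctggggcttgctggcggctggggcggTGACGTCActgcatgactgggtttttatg
In Atf3 the match is the reverse complement CGTCA, which begins 7 bases before the start. The 2 Fos matches begin 129 and 66 bases before it, the Fosb match 60, the Junb match 106 and the Maff CRE 29. Another Maff window held CGTCA 122 bases before its start.

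Libraries held 52787288 to 136503809 counts. Trp53, the targeted gene, was at 48.9 ± 2.72 CPM (SD, n = 3), where CPM are counts scaled to a common library size by TMM, in female KO and 50.9 ± 2.75 in male KO, and at means of 593 (female Y202C) to 3709 CPM (female Y217C) in the 6 mutant lines. The labelled cell type rested on part of its markers: Gfap averaged 0.257 CPM or less in 7 of 8 lines and 6.93 CPM in male Y217C, whereas the line means of Sox9 were 80.0 to 183 CPM. The summed level of 8 fibroblast and mural markers, mostly collagen I, ranged from 11911 CPM in male Y202C to 47454 CPM in female R172H, with 32455 in male KO and 27323 in female KO. The summed level of the 11 astrocyte markers ranged from 232 CPM in male Y202C to 676 CPM in female R172H. Sox9 and Gja1 made most of it in male Y202C, and Slc1a3 (281 CPM) was its largest part in female R172H. In male Y202C against male KO, Aldh1l1 (28.4 against 0.629 CPM), Aqp4 (1.77 against 0.113) and Slc1a2 (1.79 against 0.573) were higher. The other markers of the list were lower, among them Sox9 (80.0 against 151) and Gja1 (81.0 against 187). Of 9 microglial markers 3 were measured, with sums of 27.7 to 109.8 CPM that were mostly Tmem119 (16.4 to 106.6 CPM). Csf1r was at 0.291 to 2.93 CPM. In male Y202C against male KO, Cd68 was higher (22.9 against 3.53 CPM), and Tmem119 (20.5 against 73.0) and Csf1r (0.291 against 0.650) were lower. The part of these differences in the results on the 10 genes was not tested, and in bulk RNA fewer cells of a type and less RNA per cell cannot be told apart.

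The mutants moved the 10 genes in different ways rather than as a block. Over the 6 comparisons of a mutant line with the KO of its culture, 13 of 60 values were higher, 29 were lower and 18 did not pass an adjusted p of 0.05 (edgeR quasi-likelihood test, Benjamini-Hochberg over all 14427 genes). In male Y202C 7 genes were called against 73% of all genes, 6 higher (37.6% of all genes) and 1 lower (35.4%). In female Y202C 9 were called against 68.6%, 1 higher (34.3%) and 8 lower (34.3%). In male R172H 6 were called against 40.7%, 2 higher (20.2%) and 4 lower (20.5%), and in female R172H 6 against 69.7%, 1 higher (34.4%) and 5 lower (35.3%). In male Y217C 4 were called against 70.5%, 1 higher (34.9%) and 3 lower (35.6%), and in female Y217C 10 against 56.7%, 2 higher (28%) and 8 lower (28.7%). Most genes of the table were called in 5 of these 6 comparisons, so the sizes are given as well. With a log2 fold change of over 0.5 also required, 6 of the 10 were called in male Y202C (45.3% of all genes), 7 in female Y202C (37.7%), 4 in male R172H (12.9%), 3 in female R172H (38.8%), 1 in male Y217C (40.3%) and 1 in female Y217C (25.3%). The median log2 fold change of the 10 genes was 0.43 in male Y202C, -0.59 in female Y202C and -0.37 in female Y217C, and between -0.16 and -0.05 in the other 3, beside medians over all genes of -0.01 to 0.01. The 3 comparisons of a culture shared their KO libraries.

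**Figure D1:**
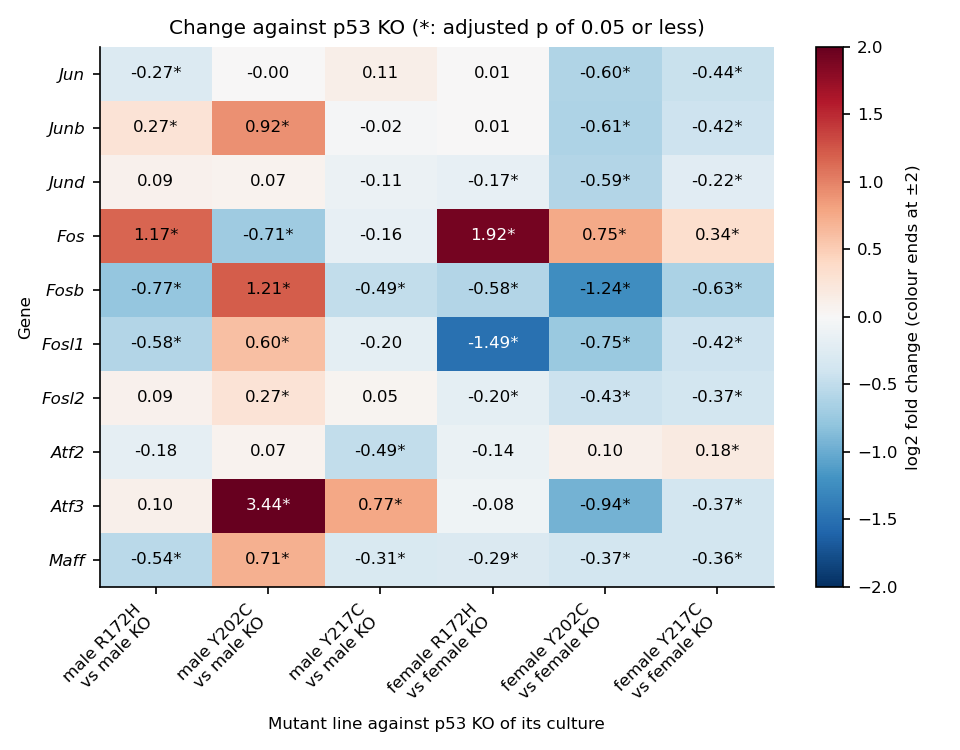
Heat map of the log2 fold change of the 10 genes (rows) in the 6 mutant lines against the KO of the same culture (columns), with red for higher, blue for lower and an asterisk for an adjusted p of 0.05 or less. Male Y202C holds the highest value, 3.44 for Atf3, and female R172H the lowest, -1.49 for Fosl1. Fosb and Maff are lower in 5 of 6 columns and higher in male Y202C.

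Of the JUN subunits, which can form dimers on their own, Jun and Jund were called lower in 3 of 6 comparisons each and higher in 0, and Junb moved in both directions. Jun encodes the strongest activator among them and lies on chromosome 4 (95049034 to 95052222, GRCm38, minus strand). It was at 124, 117 and 116 CPM in the 3 female KO libraries, at 81.3, 81.3 and 72.9 in female Y202C and at 77.4, 96.2 and 89.5 in female Y217C. Both mutant lines lay below female KO with no overlap, with log2 fold changes of -0.60 (SE 0.07, adjusted p = 1.19e-07) and -0.44 (SE 0.07, adjusted p = 1.68e-05). Female R172H, at 123, 115 and 121 CPM, lay within the range of its KO but for its lowest library (log2 fold change 0.01, 95% interval -0.14 to 0.16). In the male culture R172H was lower, at 111, 95.9 and 102 CPM against 138, 115 and 119.5 in KO (log2 fold change -0.27, SE 0.07, adjusted p = 0.00464). That call rested on the first male KO library, the highest of the 3: without it the log2 fold change was -0.18 with an adjusted p of 0.0537. Male Y202C and male Y217C did not pass, with intervals of -0.15 to 0.15 and -0.03 to 0.26. Without the first male KO library male Y217C passed as higher (log2 fold change 0.20, adjusted p = 0.0211), as it did with limma's voomWithQualityWeights (0.17, adjusted p = 0.00631).

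Junb, an immediate early gene whose product often restrains JUN, differed most of the 10 genes between the KO lines. In the KO lines it was at 326, 309 and 321 CPM in the female and 191, 184 and 177 CPM in the male libraries, 1.73-fold lower in males with no overlap (log2 difference -0.79, SE 0.07, adjusted p = 2.49e-09). Of the 10 genes, 4 were called between the KO lines, all lower in males, against 31.1% of all genes in either direction and 13.8% lower. With any 1 library left out, 2 or 3 were called: Fosb (log2 difference -0.44, adjusted p = 0.0419) was lost without replicate 1, 2 or 3 of female KO or 2 or 3 of male KO (-0.49 to -0.34), and Jund (-0.18, adjusted p = 0.0185) without replicate 1 of either line (-0.15). With a log2 difference of over 0.5 required, Junb alone was called, against 12%. From the lower male level Y202C raised Junb to 344, 352 and 352 CPM (log2 fold change 0.92, SE 0.07, adjusted p = 1.78e-11). Male R172H, at 210.1, 221 and 234 CPM, was also above male KO in each library (log2 fold change 0.27, adjusted p = 0.00323), and male Y217C, at 189, 163 and 191, overlapped it. From the higher female level Junb fell to 201, 229 and 196 CPM in Y202C (log2 fold change -0.61, adjusted p = 3.49e-08) and to 248, 233 and 233 in Y217C (log2 fold change -0.42, adjusted p = 1.51e-05). Female R172H stayed at 357, 303 and 303 CPM, around its KO (log2 fold change 0.01, 95% interval -0.13 to 0.15).

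Junb shares part of its locus on chromosome 8 (84974484 to 84978718, minus strand) with Prdx2, a peroxidase gene on the other strand, and whether counting used strand is not given in the sources used here. Jun, Jund, Atf2 and Atf3 also overlap noncoding genes (Junos, Gm11175, Gm27421 and Gm24748), and Fos, Fosb, Fosl2 and Maff overlap none. Prdx2 had the same order in the KO lines as Junb, with means of 302 CPM in female and 151 in male KO. In the female mutants it was 191 CPM in R172H, where Junb was level, 156 in Y202C and 194 in Y217C, and in male Y202C it was 135 CPM, where Junb rose. The part of shared reads in the values of Junb was not tested. Genes near Junb were mostly lower in the female mutants than in female KO, whose libraries these comparisons shared. Of the 53 other genes measured within 1 Mb, 44 were lower in female Y202C (34.3% of all genes), with a median log2 fold change of -0.87. In female Y217C 43 were lower (28.7% of all genes) with a median of -0.61. In female R172H, where Junb itself was level, 40 were lower (35.3% of all genes) with a median of -0.72. The part of that region in the fall of Junb was not tested. Nor was its part in the Junb difference between the KO lines or in the Junb interactions, which use the same female KO libraries. In male Y202C 25 of the 53 were higher and 15 lower, with a median of 0.16 beside 0.92 for Junb.

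Jund, known as the most steadily expressed JUN gene, spanned 1.501-fold between the highest and the lowest line. It separated 13 of the 28 pairs of lines, a count not made for all genes. It was at 167, 157 and 156 CPM in female KO and 106, 109 and 105 in female Y202C, the lowest line, with no overlap (log2 fold change -0.59, SE 0.06, adjusted p = 3.04e-09). Female R172H (149, 139.6 and 136 CPM) and female Y217C (144, 131 and 136 CPM) also lay below female KO, with log2 fold changes of -0.17 and -0.22 (adjusted p = 0.00825 and 0.00184). No male mutant passed, and their log2 fold changes were -0.11 to 0.09. Within 1 Mb of Jund, also on chromosome 8 (70698949 to 70700616), 47 of 78 other genes were lower in female Y202C with a median of -0.33. Of all genes 34.3% were lower there, and the part of these neighbours was not tested.

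**Figure D2:**
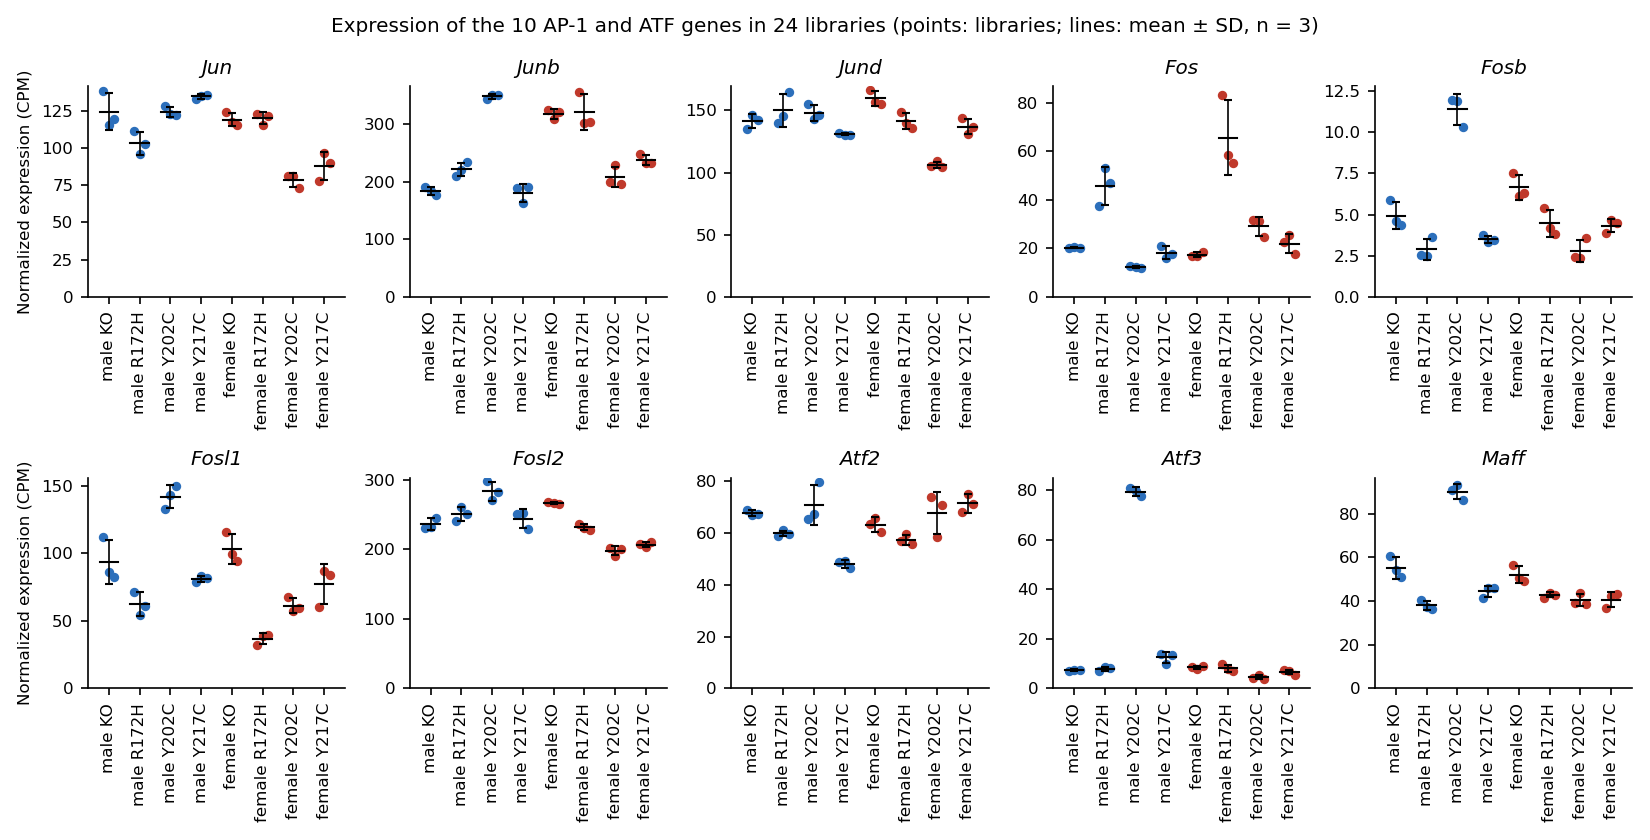
Normalized expression in CPM (vertical axes, each from 0) of the 10 genes in the 8 lines, with a point for each library and black lines for the mean ± SD (n = 3), males in blue and females in red. Atf3 stands near 80 CPM in the 3 male Y202C libraries and at 14.1 CPM or less in the other 21. Fos is highest in the R172H lines of both cultures, where Fosl1 is low.

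The FOS subunits, which need a JUN partner, split into Fos on one side and Fosl1, Fosb and in part Fosl2 on the other. Fos, the prototype immediate early gene (chromosome 12, 85473890 to 85477273), was higher in the R172H lines of both cultures. It was at 37.4, 52.97 and 47.0 CPM in male R172H against 19.9, 20.6 and 20.3 in male KO, a log2 fold change of 1.17 (SE 0.14, adjusted p = 6.83e-07). In female R172H it reached 83.3, 58.3 and 55.1 CPM against 16.8, 16.7 and 18.4 in female KO, the highest line of the 8 (log2 fold change 1.92, SE 0.15, 3.78-fold, adjusted p = 3.93e-11). The first female R172H library stood well above the other 2, yet all 3 were above all KO libraries. Y202C went opposite ways: female Y202C, at 31.5, 31.3 and 24.6 CPM, was above its KO (log2 fold change 0.75, adjusted p = 8.88e-05), and male Y202C, at 12.8, 12.4 and 12.02 CPM, was below its KO and lowest of all lines (log2 fold change -0.71, adjusted p = 0.000163). Y217C changed Fos little. Male Y217C was at 20.9, 15.8 and 17.8 CPM (log2 fold change -0.16, adjusted p = 0.343). Female Y217C, at 22.6, 25.4 and 17.8 CPM, overlapped its KO and passed the threshold only just (log2 fold change 0.34, adjusted p = 0.0499). Leaving out any female KO library or the first or second female Y217C library ended the call (log2 fold changes 0.22 to 0.39, adjusted p up to 0.246). Of 25 other genes within 1 Mb of Fos, 15 were higher and 2 lower in female Y202C (median 0.37), where 34.3% of all genes were higher. In male Y202C 8 were higher and 9 lower (median -0.00), and in female R172H 7 were higher and 12 lower (median -0.23). Their part was not tested.

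Fosl1 encodes FRA1, which lacks the activation domain of FOS and marks invasive and mesenchymal cells. It lies on chromosome 19 (5447547 to 5455946). In female R172H it was at 32.2, 38.9 and 39.3 CPM against 116, 99.8 and 94.6 in female KO, 2.81-fold lower with no overlap (log2 fold change -1.49, SE 0.13, adjusted p = 3.71e-10). Male R172H, at 71.6, 54.2 and 61.0 CPM, was below male KO at 112, 86.3 and 82.2 (log2 fold change -0.58, SE 0.13, adjusted p = 0.000735). Fosl1 was thus lower in the lines in which Fos was highest. In Y202C it was higher in males, at 133, 143 and 149.6 CPM (log2 fold change 0.60, adjusted p = 0.000162), and lower in females, at 67.8, 56.9 and 59.3 CPM (log2 fold change -0.75, adjusted p = 1.46e-05), again opposite to Fos. Female Y217C, at 60.1, 87.1 and 84.3 CPM, was lower (log2 fold change -0.42, adjusted p = 0.00652) with 1 library far below the other 2. Without that library the log2 fold change was -0.27 and the adjusted p 0.0655. Male Y217C, at 78.7, 83.3 and 81.4 CPM, did not pass (log2 fold change -0.20, adjusted p = 0.152). Across the 8 line means the Pearson correlation of Fos and Fosl1 was -0.95, a description in which the points share the 2 cultures. Ccdc85b overlaps Fosl1 on the other strand and averaged 56.6 to 94.6 CPM over the lines, with 63.9 in female R172H and 56.8 in female KO. Of 88 other genes within 1 Mb of Fosl1, 52 were higher and 19 lower in male Y202C (median 0.30), where 37.6% of all genes were higher. In female R172H 40 were higher and 16 lower (median 0.16), and in female Y202C 38 were higher and 20 lower (median 0.09). Their part was not tested.

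Fosb and Fosl2 differed in size. Fosb, an immediate early gene with a long lived splice form that this count does not separate, was the least abundant member. Its level was 11.9, 11.9 and 10.3 CPM in male Y202C and 5.86, 4.61 and 4.34 in male KO (log2 fold change 1.21, SE 0.16, adjusted p = 4.17e-07). In female Y202C it was 2.43, 2.36 and 3.59 CPM against 7.55, 6.15 and 6.31 in female KO (log2 fold change -1.24, SE 0.17, adjusted p = 9.06e-07). The male line was thus the highest and the female line the lowest of the 8 for the same mutation. The other 4 mutant lines were lower than their KO by 0.49 to 0.77 on the log2 scale, and the call in male Y217C ended without the first male KO library (log2 fold change -0.36, adjusted p = 0.0832). Fosl2 encodes FRA2 and was the steadiest FOS gene, with a span of 1.44-fold over the lines. It was 298, 270.4 and 283 CPM in male Y202C against 230.3, 232 and 245 in male KO (log2 fold change 0.27, SE 0.05, adjusted p = 2.29e-05), and lower than female KO in all 3 female mutants, with log2 fold changes of -0.20, -0.43 and -0.37. Its female KO libraries, at 268, 266 and 265 CPM, lay above every other female library.

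Per length, so that genes can be compared, the JUN sum was 179 to 280 CPM per kb of exon and the FOS sum 63.4 to 106 CPM per kb, both lowest in female Y202C and highest in male Y202C. Junb made 39.3% to 54.3% of the JUN sum, Jund 31.8% to 41.6% and Jun 12.9% to 21.2%. The make-up of the FOS sum varied more. Fosl1 made 57.4% ± 4.49 (SD, n = 3) of it in male KO and 58.5% ± 2.55 in female KO, and it made 65.7% ± 2.16 in male Y202C and 25.9% ± 4.46 in female R172H. Fos made 10.9% ± 1.11 in male KO and 8.53% ± 0.898 in female KO, 25.5% ± 4.35 and 39.2% ± 6.17 in male and female R172H, and 4.97% ± 0.287 in male Y202C. Female R172H was thus the only line of the 8 with more Fos than Fosl1 per kb, 27.9 ± 6.55 against 18.1 ± 1.94 CPM per kb. Fosl2 kept 27.6% to 34.3% and Fosb 0.607% to 1.72% in all lines. These shares were not tested.

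**Figure D3:**
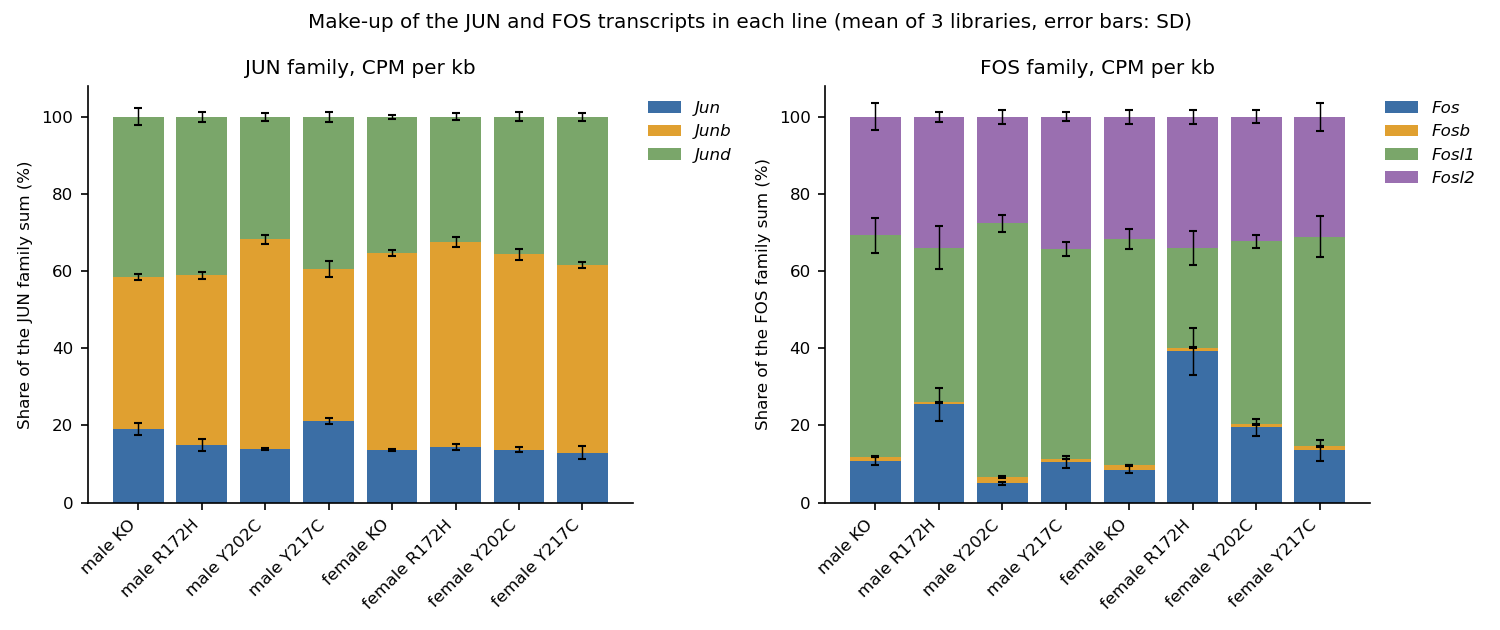
Share in percent of each JUN gene (left) and each FOS gene (right) in the sum of its family per kb of exon, as mean of 3 libraries in each of the 8 lines, with the SD of each share at the top of its segment. The Fos segment is largest in female R172H at 39.2% and smallest in male Y202C at 4.97%, and the Fosl1 segment is smallest and largest in these lines.

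The ATF genes differed in range, 17.8-fold for Atf3 and 1.49-fold for Atf2 between the highest and the lowest line. Atf3, a stress-induced factor that as a homodimer represses and with JUN can activate, lies on chromosome 1 (191170296 to 191218039). It was at 81.1, 79.8 and 77.5 CPM in male Y202C against 6.86, 7.50 and 7.56 in male KO, 10.8-fold higher (log2 fold change 3.44, SE 0.13, adjusted p = 9.37e-17). This was the highest of the 60 log2 fold changes. The same mutation in females gave 4.29, 5.30 and 3.84 CPM against 8.44, 7.98 and 9.21 in female KO (log2 fold change -0.94, SE 0.14, adjusted p = 2.46e-06), the lowest line, so the 2 Y202C lines differed 17.8-fold. Male Y217C was also higher, at 14.1, 10.0 and 13.4 CPM, with no library in the range of its KO (log2 fold change 0.77, SE 0.13, adjusted p = 1.12e-05). Female Y217C was 7.26, 7.05 and 5.55 CPM, below its KO (log2 fold change -0.37, adjusted p = 0.0223). That call ended without replicate 3 of female KO (-0.31, adjusted p = 0.088) and without replicate 3 of female Y217C (-0.26, adjusted p = 0.13). R172H left Atf3 at 7.06, 8.51 and 8.02 CPM in males and 9.73, 7.64 and 6.97 in females (log2 fold changes 0.10 and -0.08, 95% intervals -0.17 to 0.37 and -0.35 to 0.19). Of 19 other genes within 1 Mb, 6 were higher and 9 lower in male Y202C, with a median of -0.16.

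Atf2, a CRE binding factor that is mostly switched on by phosphorylation, was called in the Y217C lines. It was lower in male Y217C, at 48.6, 49.0 and 46.4 CPM against 68.8, 66.9 and 67.2 in male KO with no overlap (log2 fold change -0.49, SE 0.07, adjusted p = 1.71e-06). In female Y217C it was 67.9, 75.0 and 71.2 CPM against 63.5, 65.8 and 60.2 in female KO (log2 fold change 0.18, adjusted p = 0.0392). That call ended without replicate 1 or 3 of female KO or replicate 2 or 3 of female Y217C (log2 fold changes 0.14 to 0.18, adjusted p up to 0.151). Male R172H, at 58.9, 60.9 and 59.5 CPM, lay below male KO in each library and missed the threshold narrowly (log2 fold change -0.18, adjusted p = 0.0513), and it passed in 5 of 7 alternative analyses. The other 3 lines did not pass, with log2 fold changes of -0.14 to 0.10. Female Y202C passed as higher without its replicate 2 (0.20, adjusted p = 0.0115) and with limma's voomWithQualityWeights (0.16, adjusted p = 0.00601), with which female R172H passed as lower (-0.14, adjusted p = 0.0211).

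Maff, the small MAF of the group (chromosome 15, 79346621 to 79359076), was like Fosb higher in male Y202C and lower in the other 5 mutant lines. It was at 91.0, 93.1 and 86.1 CPM in male Y202C against 60.7, 54.0 and 51.0 in male KO (log2 fold change 0.71, SE 0.07, adjusted p = 5.64e-09). Among the other mutant lines it was lower than its KO most in male R172H at 40.3, 37.3 and 36.3 CPM (log2 fold change -0.54, SE 0.07, adjusted p = 3.07e-06) and least in female R172H at 41.5, 43.8 and 43.0 against 56.4, 50.6 and 49.2 CPM (log2 fold change -0.29, adjusted p = 0.00134). Male Y202C stood apart from all other lines. Its 3 libraries lay above the 21 others, and the remaining lines ran from 55.2 CPM in male KO to 38.0 in male R172H with few neighbours separated. Of 52 other genes within 1 Mb of Maff, 31 were higher and 10 lower in male Y202C (median 0.32), where 37.6% of all genes were higher. In male R172H 15 were higher and 8 lower (median 0.03). Their part was not tested.

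Against KO, 73% of all genes were called in male Y202C and 68.6% in female Y202C. How often each was the highest or lowest line over all genes was not counted. Male Y202C was the highest line for 6 of the 10 genes (Junb, Fosb, Fosl1, Fosl2, Atf3 and Maff) and the lowest for Fos. For Atf3, Fosb, Fosl1 and Maff it was separated from the next line, with log2 differences of 2.67, 0.77, 0.46 and 0.71 (adjusted p = 6.22e-15, 0.000146, 0.00235 and 5.64e-09). For Junb the next line was female R172H and for Fosl2 female KO, and neither difference passed (log2 0.12 and 0.09, adjusted p = 0.113 and 0.0853). Female Y202C was the lowest line for 5 genes (Jun, Jund, Fosb, Fosl2 and Atf3), and was separated from the next lowest for Jund and Atf3 (log2 0.30 and 0.57, adjusted p = 5.87e-05 and 0.0012). For Jun, Fosb and Fosl2 the next lowest line did not differ beyond the spread (adjusted p = 0.0594, 0.868 and 0.236). Of the 10 genes Fos separated the most pairs of lines, 23 of 28. How many pairs were separated by all genes was not counted. Its order began with female R172H (65.6 CPM), male R172H (45.8) and female Y202C (29.2). Then came 4 lines between 22.0 and 17.3 CPM, and last male Y202C (12.4). Neighbours within the 4 were not separated. The ends of the group were, from female Y202C (adjusted p = 0.0186) and from male Y202C (adjusted p = 0.00571). Female Y217C and female KO, the highest and lowest of the 4, passed only just (adjusted p = 0.0499). Male Y202C also had the lowest fibroblast and mural marker sum, 11911 against 32455 CPM in male KO. Col1a1 (3361 against 17294 CPM), Col1a2 (5194 against 10262), Col3a1 (765 against 2390) and Rgs5 (0.037 against 2.93) were lower. Pdgfrb (260 against 267), Acta2 (2326 against 2235) and Lum (0.173 against 0.154) were near KO, and Dcn (4.86 against 2.70) was higher. The part of these differences was not tested.

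Y202C moved 7 of the 10 genes in opposite directions in the 2 cultures. Junb, Fosb, Fosl1, Fosl2, Atf3 and Maff were higher in males and lower in females, and Fos was the reverse. How many of all genes moved in opposite directions was not counted, with 73% of all genes called in male and 68.6% in female Y202C. The interaction of culture and mutation, the male minus the female log2 fold change, was called for 9 genes in Y202C against 68% of all genes, for 7 in R172H against 58% and for 6 in Y217C against 54.8%. In Y202C 8 were positive (34.5% of all genes) and 1 negative (33.5%). With a size of over 0.5 required, the counts were 9 in Y202C (50%), 2 in R172H (36.2%) and 3 in Y217C (35%). In R172H and Y217C the share of members called was thus near or under that of all genes. In Y202C it was 4.38 for Atf3 (SE 0.19, adjusted p = 1e-15), 2.46 for Fosb, 1.53 for Junb, 1.36 for Fosl1 and 1.07 for Maff, and -1.46 for Fos (SE 0.21, adjusted p = 1.34e-06). Atf2 alone did not pass in Y202C (-0.04, 95% interval -0.25 to 0.17). In R172H the rise of Fos and the fall of Fosl1 were in the same direction in both cultures and larger in females, with interactions of -0.74 (SE 0.20, adjusted p = 0.00302) and 0.91 (SE 0.18, adjusted p = 0.000143). In Y217C Atf3 rose in males and was lower in females (1.14, SE 0.18, adjusted p = 1.28e-05), and Atf2 did the reverse (-0.67, SE 0.10, adjusted p = 4.96e-06). Between the male and female lines of 1 genotype, 7 genes were called in R172H against 62%, 9 in Y202C against 75.3% and 5 in Y217C against 68%, and with a log2 difference of over 0.5 the counts were 4 (30.4%), 8 (49.1%) and 3 (38%). The female mutants did not carry the same amount of mutant as the males: Trp53 was at 593 CPM in female and 2324 in male Y202C, 1956 and 2287 in R172H, and 3709 and 1215 in Y217C. The part of that difference was not tested.

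**Figure D4:**
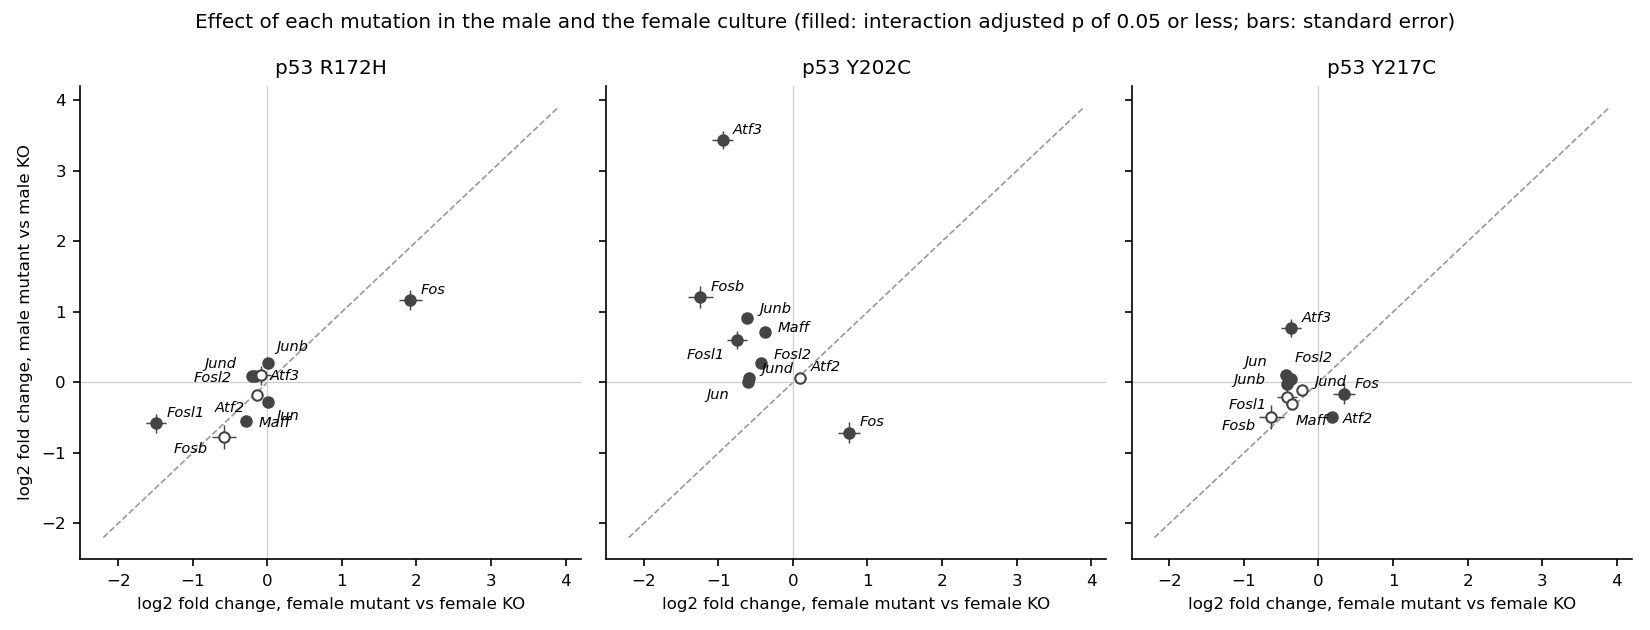
Log2 fold change against KO in the male culture (vertical) over that in the female culture (horizontal) for the 10 genes, a panel per mutation, with standard errors as bars, equal effects on the dashed line, and filled points where the interaction passed an adjusted p of 0.05. In Y202C Atf3, Fosb, Junb, Fosl1 and Maff lie in the upper left, higher in males and lower in females, and Fos in the lower right.

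Replicate libraries of a line disagreed more on some of these genes than on genes of like level. The pooled SD of log2 CPM within lines was 0.20 for Fos, larger than that of 97.7% of 2199 genes within 0.5 log2 units of its level, and 0.18 for Fosl1, larger than 98.8% of 2023 genes. For Fosl2 it was 0.05, larger than 15.8% of 671. Some genes deviated together. Over the 24 libraries, after removing the line means, the correlation was 0.87 for Fos and Atf3, 0.80 for Junb and Atf3 and 0.64 for Junb and Fos, and with Ier2, another immediate early gene, it was 0.86 for Junb, 0.85 for Atf3 and 0.83 for Fos. A second set held Jun with Fosl1 (0.76), Jun with Maff (0.71) and Fosl1 with Maff (0.68), and Fos and Fosl1 were at -0.43. These correlations are descriptions, and the part of handling and of depth, which differed between libraries, was not tested. The first female R172H library showed the first set together, with Fos at 83.3 CPM against 58.3 and 55.1, Junb at 357 against 303 and 303, and Atf3 at 9.73 against 7.64 and 6.97. The first male KO library showed the second, with Jun at 138 CPM against 115 and 119.5, Fosl1 at 112 against 86.3 and 82.2, and Maff at 60.7 against 54.0 and 51.0. Without the first female R172H library, Fos in female R172H still had a log2 fold change of 1.71.

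Between genes, the pattern of a member over all 24 libraries was never closest to that of another member. For Atf3 the 2 genes with the highest Pearson correlation of log2 CPM were Atp6v1g1 (0.980) and Slc30a9 (0.974), for Fosl1 Ddah1 (0.957) and Dnajc2 (0.954), for Fosb Mrpl37 (0.941) and Trit1 (0.920) and for Fos Lrig3 (0.920) and Otud5 (0.918). The closest pair of members was Fosb and Maff (0.870), where Maff ranked 35 among all genes. For Fos the nearest member was Junb at 0.016.

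Of 14 other ATF and CREB genes, 9 were higher and 4 lower in male Y202C, where 73% of all genes were called (37.6% higher and 35.4% lower), with a median log2 fold change of 0.50 beside 0.01 over all genes, and Atf4, Atf5 and Atf6, factors of the integrated stress and unfolded protein responses, rose by 1.23, 1.10 and 1.34 (adjusted p = 1.28e-16, 8.04e-13 and 1.06e-16). In female Y202C Atf6 was lower (-0.82, adjusted p = 2.47e-12) and Atf5 higher (0.47, adjusted p = 2.19e-06). Crebl2 was higher in all 6 mutant lines, by 0.85 to 1.60. The counts of this and the following lists stand against the same shares of all genes called as those of the members, 40.7% in male R172H, 70.5% in male Y217C, 69.7% in female R172H, 68.6% in female Y202C and 56.7% in female Y217C, and no list was tested. Of the other zipper partners of AP-1, 5 of 10 listed were measured. The small MAF Mafk moved as Maff did in Y202C, by 1.24 in males (adjusted p = 1.59e-12) and -0.57 in females (adjusted p = 2.01e-06). Nfe2l2, a CNC partner of small MAF that drives antioxidant genes, rose by 1.13 in male Y202C and was 0.24 higher in female Y202C (adjusted p = 1.48e-13 and 0.0025). Atf4, Atf5 and Atf6 were picked after their values were seen.

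Stress genes known to hold ATF or CRE-like sites moved opposite ways in the Y202C lines, as Atf3 did. In male Y202C 12 of 14 were higher and 1 lower, with a median of 1.59. Gdf15, a secreted stress factor, went from 0.351 to 21.2 CPM (log2 fold change 5.92, SE 0.28), Ppp1r15a, which restores translation after stress, from 48.3 to 389 CPM (3.01, SE 0.08), and Ddit3, which encodes CHOP, from 46.6 to 363 CPM (2.96, SE 0.08). In female Y202C 1 was higher and 9 were lower, with a median of -0.27. Gdf15 was at 0.364 CPM there against 0.917 in KO (-1.37, SE 0.32), and Cdkn1a, the cell cycle inhibitor that wild type p53 induces, at 8.49 against 16.8 CPM (-0.98, SE 0.08). The list was also higher in lines where Atf3 was not: 11 of 14 rose in male R172H (median 0.44), 8 in female R172H (0.36) and 11 in female Y217C (0.42), while in male Y217C, where Atf3 rose, 4 were higher and 7 lower (-0.10). Cdkn1a, Mdm2 and Gdf15 are p53 targets too, and Ppp1r15a, Ddit3 and Cdkn1a were picked after their values were seen.

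Other immediate early genes moved in both directions in every line. Of the 25 measured, which include Maff, 14 were higher and 5 lower in male Y202C, where Fos fell, with a median of 0.45, led by Klf4 at 487 against 132 CPM (1.88, SE 0.07). In female R172H, where Fos rose most, 9 were higher and 12 lower (median 0.03), and Arc, known from active neurons, was at 40.7 against 4.38 CPM (3.22, SE 0.17). Egr1, which like Fos answers serum response factor, was higher in all 6 mutant lines by 0.65 to 1.48, while Ier5 and Klf2 were lower in all 6. In female Y202C Egr2 rose by 2.72 and Ier2 fell by 1.31 on the log2 scale, and in male Y202C Ier2 rose by 1.31. Egr1, Ier5, Klf2 and Ier2 in males were picked after their values were seen. Of the 6 genes of serum response factor and its partners, 5 were lower in male Y202C and 1 higher.

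MAP kinases phosphorylate JUN, FOS and ATF2, and dual specificity phosphatases switch these kinases off. Of 10 MAP kinase phosphatase genes, 9 were lower and 0 higher in female Y202C (median -0.54), 7 lower and 2 higher in female R172H (-0.94), 8 lower and 1 higher in female Y217C (-0.81) and 7 lower and 1 higher in male Y217C (-0.40). Male R172H had 4 lower and 2 higher, and male Y202C 4 in each direction. Dusp2, which acts on ERK and p38, was lower in all 6 lines, at 2.01 against 16.5 CPM in male Y202C and 2.16 against 19.1 CPM in female Y217C, and Dusp9 was at 0.824 against 17.5 CPM in male Y217C. Dusp1 was higher in female R172H, at 155 against 48.0 CPM (1.70, SE 0.08), and in male Y202C, at 152 against 72.0 CPM (1.08, SE 0.08). Of 30 MAP kinase genes 20 were lower and 6 higher in male Y217C (median -0.30), where Mapk10, the JNK gene of nerve cells, rose from 0.658 CPM by 4.35, and 17 were lower and 5 higher in female R172H (-0.16). In the other lines the counts were 13 lower and 12 higher in male Y202C (0.06), 8 and 4 in male R172H (-0.06), 12 and 7 in female Y202C (-0.08) and 12 and 4 in female Y217C (-0.07). Of 11 measured regulators of JUN and FOS protein, 7 were lower in male Y217C and 7 in female R172H, and Trib2, which helps degrade proteins through COP1, rose in all 3 female mutants by 0.30 to 1.21 and in male Y217C by 0.66, and fell by 0.97 on the log2 scale in male Y202C. That Dusp2 moved one way in all lines was seen in its values.

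Genes that textbooks list as AP-1 targets, such as proteases, growth factors and adhesion molecules, were more often lower than higher in 5 of 6 lines, a count with no test of its own. Of 32 measured, 12 were higher and 14 lower in male Y202C (median -0.13) and 13 higher and 12 lower in female Y202C (0.01). In male Y217C 19 were lower and 9 higher (-0.52) and in male R172H 15 and 5 (-0.25). In female R172H the counts were 14 and 11 (-0.02) and in female Y217C 17 and 6 (-0.35). Among the 5 lines the 2 counts were closest in male Y202C and female R172H. Of all genes, 37.6% were higher and 35.4% lower in male Y202C, and 34.4% and 35.3% in female R172H. Plau, which encodes the protease urokinase, fell from 45.3 to 3.65 CPM in male Y217C (-3.63, SE 0.09), and Ptgs2, which makes prostaglandins, from 279 to 52.7 CPM in female Y202C (-2.41, SE 0.16). Some genes moved one way in all 6 lines and were picked for it after their values were seen: Cd44, the hyaluronan receptor of mesenchymal glioma, fell by 0.88 to 1.46 on the log2 scale, Itga5 by 0.19 to 0.63, and Spp1 (osteopontin) rose by 0.24 to 1.91. Ccnd1, which encodes cyclin D1, rose by 1.66 in male Y202C (adjusted p = 2.12e-18) and fell by 1.16 on the log2 scale in female Y202C (adjusted p = 2.73e-15), as Junb, Fosl1 and Maff did, and was also picked after its values were seen.

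**Figure D5:**
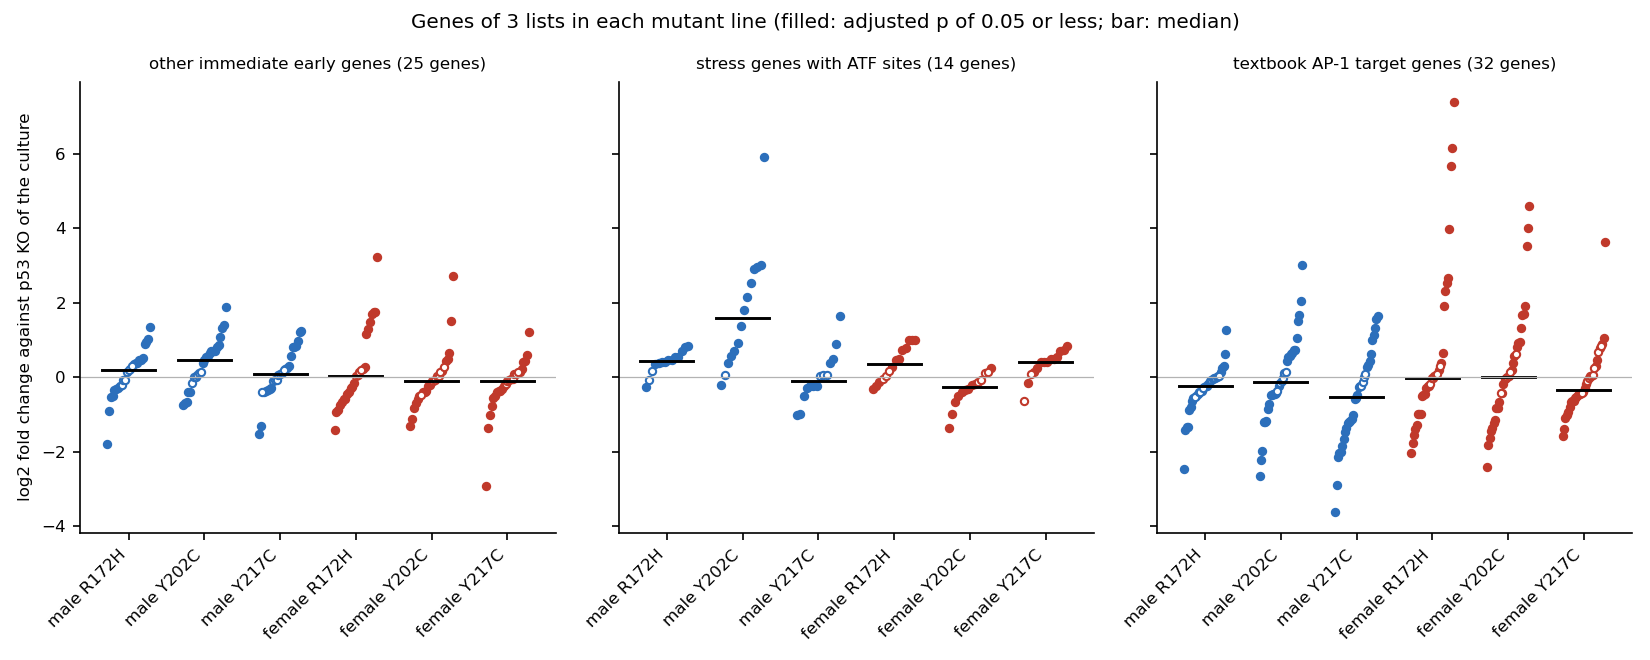
Log2 fold change against KO of the genes of 3 lists in the 6 mutant lines (males blue, females red), with filled points for an adjusted p of 0.05 or less and a black bar for the median. The median of the stress genes stands at 1.59 in male Y202C and -0.27 in female Y202C, while the medians of the AP-1 targets lie between -0.52 and 0.01.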

How the data were processed

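Polyadenylated RNA was sequenced by the submitters in 24 libraries of 8 lines from 2 pooled cultures. Per the labels and the study's methods, reads were aligned with STAR (2.5.1a) to the mouse genome and uniquely aligned reads were counted per gene with featureCounts, and ribosomal and low genes were left out before the counts were deposited by the authors as whole-number counts without normalization. Libraries held 52787288 to 136503809 counts, and the floor of 3 counts and all intervals cover counting or replicate error only. Gene IDs were named with the GENCODE M21 annotation (GRCm38), which named 14350 of 14427.

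The members, gene lists and motifs were chosen with earlier results of these data known, and the TGACG search was added after seeing the other 3. Counts were scaled by TMM and fitted over all 8 lines with edgeR's quasi-likelihood test (4.0.16, R 4.3.3), with Benjamini-Hochberg adjustment over all genes of a comparison and a threshold of 0.05. Each mutant was compared with the KO of its culture, the interaction was the male minus the female log2 fold change, and male and female lines were compared within a genotype. Genes had to exceed 1 CPM in 2 or more libraries, which removed 0. Levels between genes were divided by the length of the merged exons. Likeness between genes was the Pearson correlation of log2 CPM (prior count 2). Besides the 10 members and Trp53, the text names the 2 genes most like a member and, for each list and comparison, the called gene that rose most and the called gene that fell most, provided that no library of its higher line had under 10 counts. Other genes are said to be picked after their values were seen.

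Alternatives were limma's voomWithQualityWeights (3.58.1), DESeq2 (1.42.0), DESeq2 size factors, no filter, a filter of 5 CPM in 3 libraries, fits of only the lines compared, a replicate block, a fold threshold and each library left out. The 3 replicates of a line carried the same numbers in each line but did not deviate together. The fits were tested on simulated counts. Python 3.11.15 and matplotlib 3.10.9 were used for tables and figures. No column of the table was left out. Promoters came from RefSeq (GRCm38.p6), and proteins were not analysed here.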

Additional observations from a re-analysis of the deposited data

Results flagged for a closer look

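For 22 of the 30 pairs of member and mutation, the effect against KO differed between the male and the female culture by a test of the interaction (edgeR quasi-likelihood, Benjamini-Hochberg over all genes). Of all genes, 58% differed in R172H, 68% in Y202C and 54.8% in Y217C by the same test, against 7, 9 and 6 of the 10 members. Each value is the male minus the female log2 fold change. The male and female KO lines enter every one of them, and sex and culture cannot be told apart.

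In Y202C 8 of 9 were positive. Atf3 differed by 4.38 (SE 0.19, adjusted p = 1e-15), Fosb by 2.46 (SE 0.24, adjusted p = 2.31e-09), Junb by 1.53 (SE 0.10, adjusted p = 1.17e-12) and Fosl1 by 1.36 (SE 0.18, adjusted p = 4.05e-07). These 4 rose in males and fell in females, as did Maff at 1.07 (SE 0.10, adjusted p = 2.42e-09) and Fosl2 at 0.70 (SE 0.07, adjusted p = 2.29e-09). Jund at 0.65 (SE 0.08, adjusted p = 1.15e-07) and Jun at 0.60 (SE 0.10, adjusted p = 1.52e-05) fell in females and did not pass in males. Fos went the other way, at -1.46 (SE 0.21, adjusted p = 1.34e-06).

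In R172H the values were smaller. Fosl1 differed by 0.91 (SE 0.18, adjusted p = 0.000143) and Fos by -0.74 (SE 0.20, adjusted p = 0.00302), both with the larger change in females. Fosl2 differed by 0.29 (SE 0.07, adjusted p = 0.000676), Jund by 0.26 (SE 0.08, adjusted p = 0.00713), Junb by 0.26 (SE 0.10, adjusted p = 0.0269), Jun by -0.28 (SE 0.10, adjusted p = 0.0231) and Maff by -0.25 (SE 0.10, adjusted p = 0.0402). The calls of Jun, Junb and Maff ended in 4, 5 and 7 of the 12 fits that left out 1 library, with values of -0.34 to -0.19, 0.21 to 0.34 and -0.31 to -0.18.

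In Y217C Atf3 differed by 1.14 (SE 0.18, adjusted p = 1.28e-05), Atf2 by -0.67 (SE 0.10, adjusted p = 4.96e-06), Jun by 0.55 (SE 0.10, adjusted p = 6.16e-05), Fosl2 by 0.41 (SE 0.07, adjusted p = 1.22e-05) and Junb by 0.40 (SE 0.10, adjusted p = 0.0013). Fos differed by -0.50 (SE 0.21, adjusted p = 0.0441), a call that ended in 9 of the 12 fits that left out 1 library, with values of -0.63 to -0.38.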

How the results depend on the processing

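Direction and side of the threshold held in 677 of 700 comparisons with an alternative fit and in 713 of 780 with a library left out. Both totals cover the 6 comparisons of a mutant with KO, the 3 interactions and the comparison of the KO lines. They leave out the comparisons of male and female lines of 1 mutation. Of the 700, the 100 without a filter could not differ, since the main filter removed 0 genes. In the comparisons covered, the direction turned only where the main value was near 0. Jun in male Y202C was 0.053 with voomWithQualityWeights and 0.001 with a replicate block, and Junb in male Y217C was 0.018 with voomWithQualityWeights and 0.008 with the 5 CPM filter. Leaving out 1 library in turn gave -0.053 to 0.083 and -0.074 to 0.037 for these, -0.027 to 0.12 for Atf2 in male Y202C, -0.012 to 0.042, -0.072 to 0.051 and -0.23 to 0.022 for Jun, Junb and Atf3 in female R172H, -0.13 to 0.030 for Atf2 in the Y202C interaction, -0.024 to 0.12 for Maff in the Y217C interaction and -0.021 to 0.11 for Jun between the KO lines. The cause was not tested.

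With a log2 fold change above 0.5 also required, members called fell to 1 in male Y217C, 3 in female R172H, 1 in female Y217C, 2 and 3 in the R172H and Y217C interactions, and 1, 4 and 3 between male and female KO, R172H and Y217C lines, by construction. With a library left out, 2 to 3 were called between the KO lines (2 without the first female KO library) and 4 to 7 between the R172H lines (4 without the second male R172H library). With the length of the longest transcript, mean shares were 13.74%, 53.49% and 32.78% for Jun, Junb and Jund (15.48%, 47.56% and 36.96% with merged exons), and 1.355%, 45.02% and 38.58% for Fosb, Fosl1 and Fosl2 (1.004%, 50.48% and 31.94%).

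Same-numbered libraries did not deviate together (mean correlation -0.012 over 84 pairs, 0.006 over 168 pairs of different numbers). The replicate block ended the calls of Fos and Atf2 in female Y217C (adjusted p = 0.0551 and 0.0521) and of Fosb between the KO lines (0.0502), where leaving out a library ended the call in 5 of 6 fits. Depth limited no member, since the least abundant was well above 3 counts in each library. With 3 libraries of 1 culture per line, other cultures were not sampled.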
